A study of Homo sapiens with 4 samples.

Results

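Transcripts of 9 enzymes or enzyme subunits of the tricarboxylic acid (TCA) cycle were followed in the human melanoma line A375 after exposure to the medium-chain fatty acid octanoate. The genes were CS, IDH1, IDH2, IDH3A, OGDH, SUCLG1, SUCLA2, FH and MDH2. IDH1, the cytosolic and peroxisomal counterpart of IDH2, is counted with the cycle here. They were taken by name from a table of 56832 genes, and all 9 were found there. The cells carried the label wild type, grew in DMEM with serum, and received either octanoate at 1 mM or its solvent isopropanol for 48 h. Each group held 2 libraries of total RNA, and the aim stated for the series was to find genes and gene signatures raised by the treatment. No label says whether the libraries came from separate cultures, so the p-values below measure only the spread between these libraries. A375 is a single cell line with 1 genetic background.

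The TCA cycle runs in the mitochondrial matrix. It oxidises the acetyl group of acetyl-CoA to carbon dioxide and passes the electrons to NAD+ and to the respiratory chain. Beta-oxidation of fatty acids such as octanoate ends in acetyl-CoA, which citrate synthase joins to oxaloacetate to start the cycle. Besides its part in respiration the cycle supplies citrate for lipid synthesis and alpha-ketoglutarate and oxaloacetate for amino acid synthesis, and in growing tumour cells glutamine refills it.

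The libraries held between 67785956 and 78005035 recovered reads, and transcripts of the mitochondrial genome took 3.03% to 3.21% of them. The 9 genes were well covered, with 1942 to 28513 reads per gene and library, and together made up 0.137% to 0.141% of the reads in each library. Of the melanocytic markers, SOX10 was high in every library (34072 to 41363 normalised counts) and MITF and S100B were present, though lower under octanoate (MITF fell by 28.2% and S100B by 54.0%, adjusted p 2.33e-06 and 9.15e-12 by limma). The pigment gene PMEL was higher under octanoate, by 46.3% (adjusted p 0.0289 by limma), from a low level, but was not called by DESeq2. PMEL, MLANA, TYR and DCT were at 1.93 to 98.2 normalised counts in every library, so this line expressed the lineage factor with little of the pigment programme. The 4 haematopoietic markers summed to 25.03 to 35.3 normalised counts per library. The epithelial list (4 genes) summed to 988 and 1166 in vehicle and 266 and 307 in octanoate, almost all of it KRT14. The fibroblast list (5 genes) summed to 1314 and 1316 in vehicle and 1106 and 1121 in octanoate, and the endothelial list (3 genes) to 201 and 207 against 338 and 347. Their part in the results below was not tested. In bulk RNA, fewer cells expressing a gene and less RNA of it per cell cannot be told apart.

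The 9 genes did not move as a block. Under octanoate the transcripts of the NADP-linked isocitrate dehydrogenases, IDH1 and IDH2, fell by 19.4% and 21.7%. In the next pair of steps transcripts of single subunits rose, OGDH by 23.9% and SUCLG1 by 13.1%. Most other subunits of these steps, described below, were not called. CS, IDH3A, SUCLA2, FH and MDH2 did not pass the test, with estimates between -6.09% and 4.77%. Thus 2 of 9 rose, 2 fell and 5 were not called at an adjusted p under 0.05 with limma, a test that shares variance information across genes. Over all 20250 tested genes 29.9% were called (16.2% higher, 13.7% lower), and 37.3% among the 5637 genes within the range of mean counts of the 9 members (2523 to 26325; 16.2% higher and 21.2% lower there). The share of the 9 that was called is therefore near the background. Their median log2 difference was -0.01, beside 0.01 over all tested genes, and their median absolute log2 difference was 0.09, beside 0.19 over all tested genes and 0.12 over genes in the same range of counts.

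**Figure D1:**
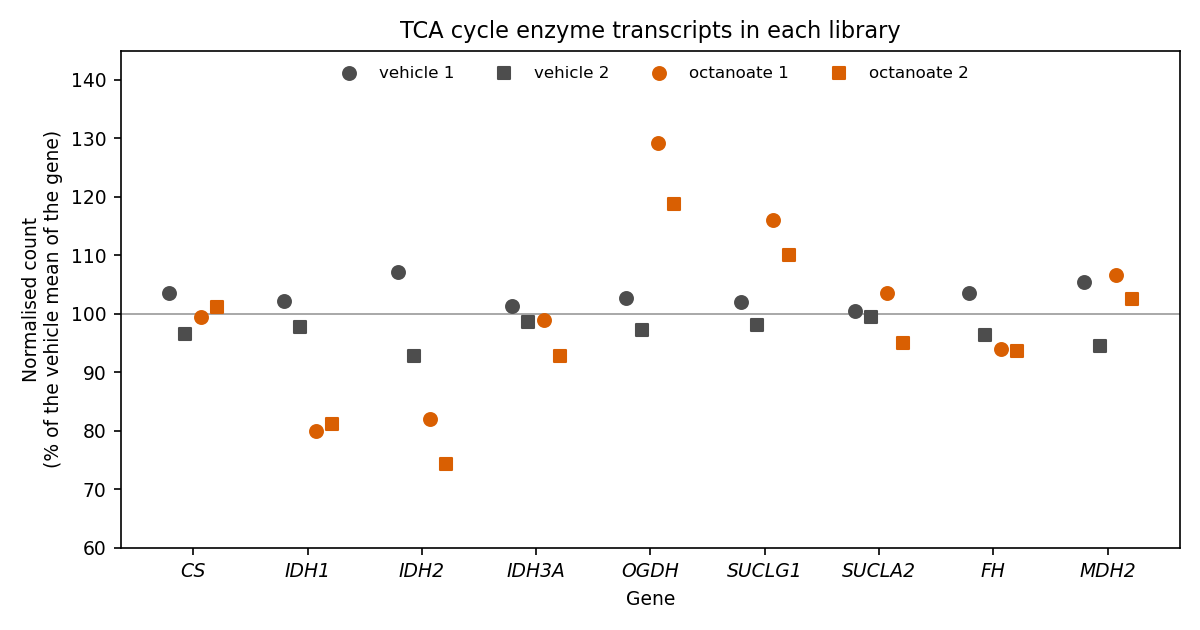
Normalised count of each of the 9 genes in each library, as a percentage of the mean of the 2 vehicle libraries (vertical axis), with grey for vehicle, orange for octanoate, circles for replicate 1 and squares for replicate 2. IDH1 and IDH2 lie between 74.3% and 82.0% in both octanoate libraries, and OGDH and SUCLG1 between 110% and 129%.

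Sequence just before the transcription start is shown for IDH1, which fell, and for FH and CS, which were not called, because each held at least 2 copies of both of a pair of common promoter motifs. The windows come from the RefSeq table for GRCh38.p14, which matched 8 of the 9 genes, and are cut to the bases outside annotated exons of the gene itself. Capitals mark GGGCGG, the GC box bound by SP1-type factors, and CCAAT, the box bound by NF-Y, on either strand, so they also appear as CCGCCC and ATTGG. All 3 genes are on the minus strand, and each line reads 5′ to 3′ toward the gene.
IDH1, chr2:208255134-208255321: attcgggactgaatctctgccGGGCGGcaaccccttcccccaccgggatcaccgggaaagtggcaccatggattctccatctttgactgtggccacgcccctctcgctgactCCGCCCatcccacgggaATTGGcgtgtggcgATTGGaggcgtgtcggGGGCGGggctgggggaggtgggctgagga
FH, chr1:241519762-241520005: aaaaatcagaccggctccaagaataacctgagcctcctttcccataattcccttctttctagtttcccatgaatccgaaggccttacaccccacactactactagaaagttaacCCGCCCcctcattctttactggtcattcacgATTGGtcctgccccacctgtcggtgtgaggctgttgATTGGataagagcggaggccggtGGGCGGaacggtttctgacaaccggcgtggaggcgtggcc
CS, chr12:56300393-56300580: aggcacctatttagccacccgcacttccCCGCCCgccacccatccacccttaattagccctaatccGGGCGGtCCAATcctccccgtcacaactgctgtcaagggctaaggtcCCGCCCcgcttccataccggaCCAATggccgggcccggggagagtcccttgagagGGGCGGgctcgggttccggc
IDH1 has a second, more downstream window in that table, which is not printed. The IDH1 stretch of 188 bases held 3 GC boxes and 2 CCAAT boxes. The FH stretch of 244 bases held 2 of each, and the CS stretch of 188 bases held 4 GC boxes and 2 CCAAT boxes. Over the full 250 bases before the start, a GC box was present for CS, FH, IDH1, IDH3A and SUCLA2, and a CCAAT box for CS, FH, IDH1 and SUCLA2. Of all 35116 promoter windows of that length, 42.6% held a GC box and 32.0% a CCAAT box. The SUCLG1 and IDH2 windows held none of the 6 motifs searched on both strands. Besides the GC and CCAAT boxes these were the ETS core CCGGAAG (8.52% of all windows, found for MDH2), the palindromic NRF1 site (1.03%), the E-box CACGTG (6.34%) and the TATA box TATAAA (10.7%), and the last 3 were found for no member. The RefSeq window of IDH2 lies away from the starts in GENCODE 29, where no transcript begins within 50 bases of it. A match is a run of letters in this window and was not tied to the response of any gene.

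CS encodes citrate synthase, the entry enzyme of the cycle, and lies on chromosome 12 (GRCh38, 56271699 to 56300392, minus strand). Only its transcript was measured here, not entry into the cycle. Its normalised count was 18398 and 17149 in vehicle and 17688 and 17981 in octanoate. The octanoate values lay between the vehicle values. The log2 difference was 0.01 (SE 0.06, adjusted p 0.955 by limma), with a 95% interval from -7.51% to 8.99% around a change of 0.40%. In GENCODE 29 CS shares 1408 bases at 97.6% identity with AC020904.2, which makes its count less certain.

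The isocitrate dehydrogenases oxidise isocitrate to alpha-ketoglutarate in 3 forms. IDH1 is the cytosolic and peroxisomal NADP-linked enzyme, a source of NADPH for lipid synthesis, on chromosome 2 (208236227 to 208266074, minus strand). IDH2 is its mitochondrial counterpart on chromosome 15 (90083045 to 90102504, minus strand). IDH3A encodes the catalytic subunit of the NAD-linked enzyme, the form usually counted as the cycle step, also on chromosome 15 (78131498 to 78171949, plus strand).

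IDH1 had 14591 and 13954 normalised counts in vehicle and 11414 and 11593 in octanoate. Both octanoate libraries lay below both vehicle libraries by more than the gap within either group. The log2 difference was -0.31 (SE 0.06, adjusted p 0.000142 by limma), with an interval from -25.6% to -12.7%. The promoter stretch printed above belongs to this gene. A GENCODE 29 antisense gene, IDH1-AS1, overlaps 94 bases of its exons, and whether counting used the strand is not given in the sources used here.

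IDH2 was less abundant, with 3034 and 2630 normalised counts in vehicle and 2323 and 2105 in octanoate. The groups did not overlap, although the gap between them was smaller than the gap within vehicle. IDH2 fell by 0.35 on the log2 scale (SE 0.07, adjusted p 0.000585 by limma, interval -29.4% to -13.2%). The ratio of IDH1 to IDH2 counts within a library was 4.81 and 5.30 in vehicle and 4.91 and 5.51 in octanoate. These ratios overlapped between the groups (exact permutation p 0.667, two-sided), so no difference between the fall of IDH1 and that of IDH2 was seen.

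IDH3A had 4024 and 3915 normalised counts in vehicle and 3927 and 3687 in octanoate. The groups overlapped, and the log2 difference of -0.06 (SE 0.06, adjusted p 0.493 by limma) had an interval from -12.1% to 4.57%. The ratio of IDH1 to IDH3A was 3.62 and 3.56 in vehicle and 2.91 and 3.14 in octanoate, and that of IDH2 to IDH3A was 0.754 and 0.672 against 0.592 and 0.571. Both ratios were lower in each octanoate library than in either vehicle library, each with an exact permutation p of 0.333 (two-sided). This is the smallest p that 2 libraries against 2 can give, so this test could not have shown a difference between the NADP-linked and NAD-linked forms. Of the IDH3A exons 38.2% overlap ACSBG1 on the opposite strand, a gene with a mean of 22.2 normalised counts here.

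The NAD-linked enzyme has a pair of regulatory subunits, whose differences were not tested against each other. IDH3B, a regulatory subunit, had 12110 and 11150 normalised counts in vehicle and 10606 and 10102 in octanoate, so that no octanoate library reached a vehicle library. It fell by 10.9% (log2 difference -0.17, SE 0.06, limma adjusted p 0.0345). This call was lost without vehicle 1 (log2 difference -0.11, limma adjusted p 0.295), without octanoate 2 (-0.13, adjusted p 0.253) and with TMM factors (-0.15, adjusted p 0.0690). IDH3G, the remaining regulatory subunit, had a log2 difference of 0.05 (SE 0.06, adjusted p 0.625 by limma), and its groups overlapped.

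The alpha-ketoglutarate dehydrogenase complex converts alpha-ketoglutarate to succinyl-CoA and releases carbon dioxide. OGDH encodes its decarboxylating subunit, on chromosome 7 (44606572 to 44709066, plus strand). OGDH had 8917 and 8445 normalised counts in vehicle and 11217 and 10307 in octanoate. Both octanoate libraries were above both vehicle libraries, and the gap between the groups exceeded the gap within each. OGDH rose by 0.31 on the log2 scale (SE 0.06, adjusted p 0.000289 by limma), with an interval from 13.8% to 34.9%. OGDHL, a paralogue of OGDH, was present at a far lower level, 262 and 198 normalised counts in vehicle and 358 and 341 in octanoate. It rose by 53.4% (log2 difference 0.62, SE 0.13, limma adjusted p 0.000612). No stretch of at least 100 bases at 95% identity or more was shared between OGDH and any other gene.

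The other parts of that complex did not pass the test. DLST, the lipoyl-bearing succinyltransferase core, had a log2 difference of -0.01 (SE 0.06, adjusted p 0.946 by limma). DLD, the lipoamide dehydrogenase that the complex shares with pyruvate dehydrogenase, had one of -0.02 (SE 0.06, adjusted p 0.854 by limma). MRPS36, a small protein linking the subunits, had one of 0.05 (SE 0.06, adjusted p 0.569 by limma). The ratio of OGDH to DLST within a library was 0.865 and 0.885 in vehicle and 1.13 and 1.05 in octanoate. It was higher in both octanoate libraries, by 1.24-fold, with the smallest p the exact permutation test allows here (0.333, two-sided).

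Succinyl-CoA synthetase makes succinate together with GTP or ATP. SUCLG1 encodes the alpha subunit common to both forms, on chromosome 2 (84423523 to 84460045, minus strand), and pairs with SUCLA2 in the ATP form or SUCLG2 in the GTP form. SUCLG1 had 6285 and 6042 normalised counts in vehicle and 7152 and 6787 in octanoate. The groups did not overlap, and SUCLG1 rose by 0.18 on the log2 scale (SE 0.06, adjusted p 0.0231 by limma, interval 4.05% to 22.9%). This was the least certain of the 4 calls. Without vehicle 2 its limma adjusted p was 0.146 (log2 difference 0.15), and without octanoate 1 it was 0.210 (log2 difference 0.14).

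SUCLA2, on chromosome 13 (47745736 to 48037968, minus strand), had 5460 and 5401 normalised counts in vehicle and 5621 and 5159 in octanoate. The octanoate libraries lay on either side of the vehicle libraries, and the log2 difference of -0.01 (SE 0.06, adjusted p 0.905 by limma) had an interval from -9.00% to 8.05%. SUCLG2 had 13031 and 12562 normalised counts in vehicle and 14063 and 14250 in octanoate. Its groups did not overlap, and its log2 difference of 0.15 (SE 0.06) missed the threshold narrowly (limma adjusted p 0.0506). It passed under 9 of 16 other settings, among them edgeR (adjusted p 0.0233) and DESeq2 (adjusted p 0.0340) on the recovered reads.

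The balance of the beta subunits was compared within libraries. The ratio of SUCLA2 to SUCLG2 was 0.419 and 0.430 in vehicle and 0.400 and 0.362 in octanoate, lower in both octanoate libraries. The ratio of SUCLG1 to SUCLA2 was 1.15 and 1.12 in vehicle and 1.27 and 1.32 in octanoate, higher in both. Each had an exact permutation p of 0.333 (two-sided), the smallest the design can give. In all 7 ratios were compared, and none had a Benjamini-Hochberg adjusted p below 0.389.

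Succinate dehydrogenase is both a cycle enzyme and complex II of the respiratory chain, and none of its 4 subunits is among the 9 members. SDHD, a membrane anchor, had 4945 and 5246 normalised counts in vehicle and 4744 and 4281 in octanoate, all lower under octanoate. It fell by 11.5% (log2 difference -0.18, SE 0.06, limma adjusted p 0.0364). The call was lost without vehicle 2 (log2 difference -0.13, adjusted p 0.240), without octanoate 2 (-0.10, adjusted p 0.409), with TMM factors (-0.16, adjusted p 0.0602) and with DESeq2 (-0.17, adjusted p 0.0650). SDHA, the flavoprotein, and SDHC, the other anchor, had log2 differences of -0.11 (SE 0.06, adjusted p 0.164 by limma) and -0.10 (SE 0.06, adjusted p 0.170 by limma), without overlap of the groups. With the replicate number as a block both passed (limma adjusted p 0.0227 for SDHA and 0.0292 for SDHC), whereas without vehicle 1 the log2 difference of SDHA was -0.045 (limma adjusted p 0.697). SDHB, the iron-sulphur subunit, had a log2 difference of 0.03 (SE 0.06, adjusted p 0.746 by limma). Of the SDHD exons 11.2% overlap AP002884.3 on the same strand.

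FH encodes fumarase, which hydrates fumarate to malate, on chromosome 1 (241497603 to 241519761, minus strand). FH had 18867 and 17548 normalised counts in vehicle and 17115 and 17060 in octanoate. Both octanoate libraries were lower than both vehicle libraries, but the gap between the groups was smaller than the gap within vehicle. The log2 difference was -0.09 (SE 0.06, adjusted p 0.252 by limma), with an interval from -13.5% to 1.94%. FH was called only after correction of every library for GC content and length (log2 difference -0.11, limma adjusted p 0.0470). FH shares 701 bases at 95.01% identity with the pseudogene FHP1.

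MDH2, the mitochondrial malate dehydrogenase that regenerates oxaloacetate, lies on chromosome 7 (76048051 to 76067508, plus strand). MDH2 had the highest count of the 9 genes, 27151 and 24307 in vehicle and 27445 and 26398 in octanoate. The groups overlapped, and the log2 difference of 0.07 (SE 0.06, adjusted p 0.448 by limma) had an interval from -4.02% to 14.4%. MDH1, its cytosolic counterpart in the malate-aspartate shuttle, had a log2 difference of -0.06 (SE 0.06, adjusted p 0.466 by limma). The ratio of MDH1 to MDH2 was 0.663 and 0.724 in vehicle and 0.657 and 0.609 in octanoate (exact permutation p 0.333, two-sided). The groups were thus separated by a narrow margin, with the higher octanoate ratio next to the lower vehicle ratio.

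**Figure D2:**
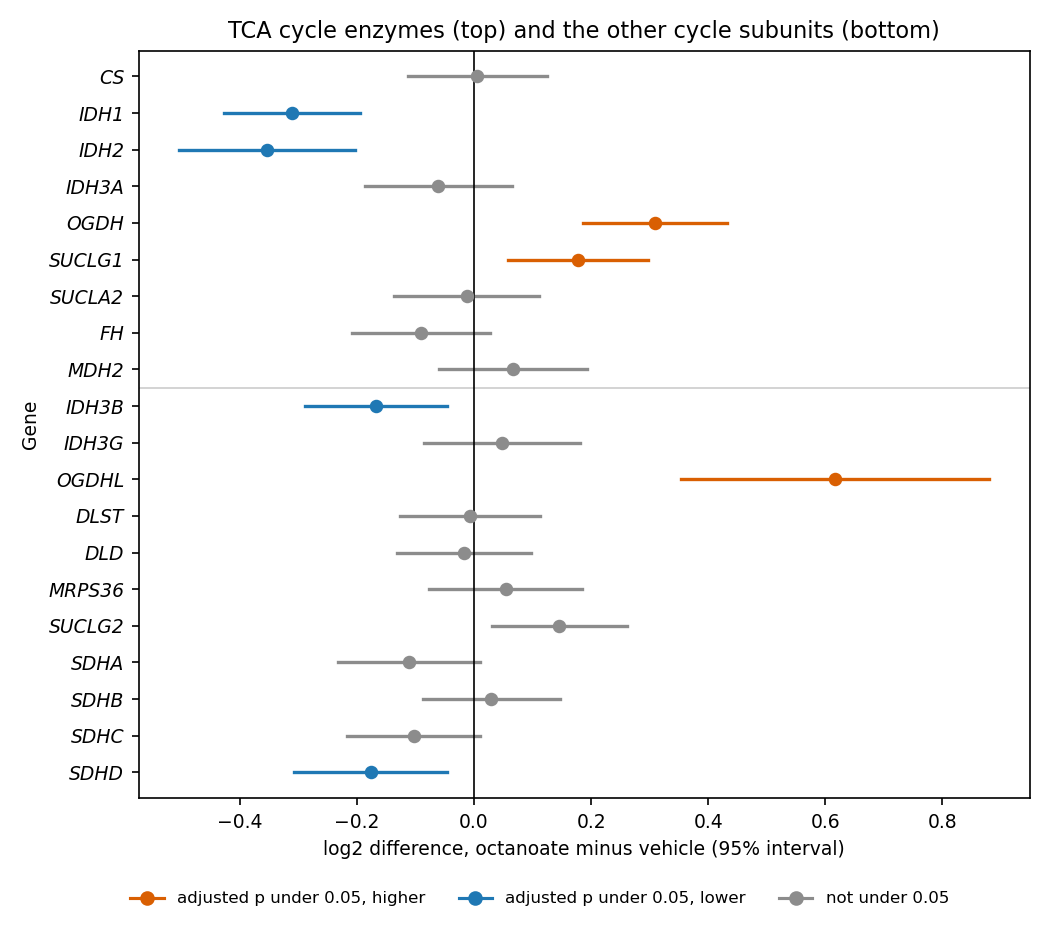
Log2 difference between octanoate and vehicle (horizontal axis, points) with its 95% interval (lines) for the 9 genes above the rule and the 11 other cycle subunits below it, coloured by the limma call. Called genes run from -0.35 for IDH2 to 0.62 for OGDHL, and the intervals of all uncalled genes but SUCLG2 include 0.

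Across the 11 other cycle subunits described here 1 was called higher (OGDHL) and 2 lower (IDH3B and SDHD), or 27.3%, beside 29.9% of all tested genes. Without octanoate 2 the count was 1, and with the replicate block it was 6. Their median log2 difference was -0.01, the same as that of the 9 members to this rounding. Groups did not overlap for 5 of the 9 members and 6 of the 11 others, against 63.1% of all tested genes and 69.2% of genes in the members' range of counts. By this measure too the members did not stand out from the background.

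Levels of different genes were compared only per length, as normalised counts per kilobase of annotated exon in GENCODE 29. FH (8500 ± 436) and MDH2 (7067 ± 552) were highest in vehicle. IDH1 (3023 ± 95.3), CS (2776 ± 138), OGDH (1666 ± 64.1) and SUCLG1 (1438 ± 40.1) followed. IDH2 (1006 ± 101), SUCLA2 (608 ± 4.68) and IDH3A (581 ± 11.3) were lowest (SD, n = 2 throughout). Over the 4 libraries the ranges of IDH1 and CS overlapped, as did those of OGDH and SUCLG1 and those of SUCLA2 and IDH3A. Within every single library OGDH lay above SUCLG1 and SUCLA2 above IDH3A, so of these pairs only IDH1 and CS changed order. In octanoate IDH1 (2437 ± 26.8) lay below CS (2786 ± 32.4; SD, n = 2 each), the reverse of their order in vehicle. The lengths count every annotated exon, so genes with long alternative exons, such as SUCLA2 with 8928 bases, come out low per kilobase.

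**Figure D3:**
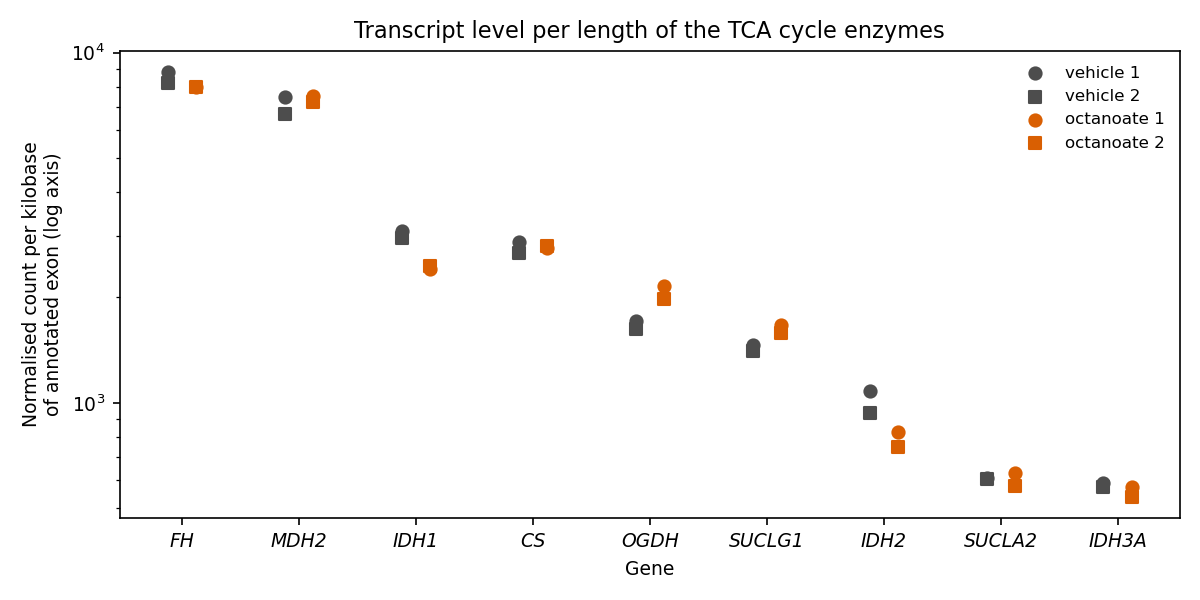
Normalised count per kilobase of annotated exon (log axis) of each gene in each library, ordered by the vehicle mean, with grey for vehicle and orange for octanoate. The span runs from about 8500 for FH to 581 for IDH3A in vehicle, and IDH1 passes below CS in octanoate.

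In the authors' deposited table the same 4 members had an adjusted p under 0.05, where 12.9% of all 33533 genes did. The log2 fold changes in the authors' deposited table were -0.31 for IDH1, -0.35 for IDH2, 0.31 for OGDH and 0.18 for SUCLG1. The adjusted p there was 5.30e-07 for IDH1, 1.81e-05 for OGDH, 0.000708 for IDH2 and 0.0231 for SUCLG1, all in the authors' deposited table. These values come from the same libraries and are no independent evidence.

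The calls rest on the variance that limma shares across genes of like abundance. Without that intensity trend, none of the 9 passed: the limma adjusted p was 0.0755 for IDH1, 0.107 for OGDH, 0.141 for IDH2 and 0.190 for SUCLG1. In that fit 3 of the 9 had an unadjusted p under 0.05, and 8.02% of all genes were called. Both edgeR and DESeq2 on the recovered reads called the 4 members in the same directions, with 32.0% and 24.1% of their tested genes called. With the replicate number as a block the same 4 were called among 41.4% of all genes.

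Genes that feed, drain or support the cycle were read from 4 lists. Of 26 tested neighbouring genes 7 were called higher and 4 lower (42.3%, beside the 29.9% of all tested genes), with a median log2 difference of 0.09. The count of called genes was 7 without vehicle 1, 5 without vehicle 2 and 6 without octanoate 1, and DESeq2 called 7. The 10 genes with the smallest p are named below.

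Among enzymes that fill the cycle or draw on it inside mitochondria, limma called 5 of 6 tested genes higher, with a median log2 difference of 0.22. Of all tested genes 16.2% were called higher by limma. DESeq2 called 4 of the 6 higher. PC, pyruvate carboxylase, which makes oxaloacetate from pyruvate, rose from a normalised count of 4239 ± 232 to one of 6108 ± 204 (SD, n = 2 each), by 0.53 (SE 0.06, adjusted p 2.96e-07 by limma). PCK2, the mitochondrial phosphoenolpyruvate carboxykinase that withdraws oxaloacetate, rose from 2375 ± 215 to 3572 ± 210 (SD, n = 2 each), by 0.59 (SE 0.07, adjusted p 4.16e-07 by limma). The rises of PC and PCK2, 44.1% and 50.5%, were estimated as larger than that of any of the 9 members. The malic enzyme ME2 rose by 15.8% (limma adjusted p 0.00617) and the glutamate dehydrogenase GLUD1 by 12.01% (limma adjusted p 0.0286). ME3, named after its value was seen, was the remaining one (17.9%, limma adjusted p 0.0485) and was not called by DESeq2. GLS2 had at most 3.25 normalised counts in any library and was not tested.

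Among cytosolic counterparts and carriers, limma called 4 of 10 lower and did not call the rest, with a median log2 difference of -0.02. Of all tested genes 13.7% were called lower. SLC25A10, the dicarboxylate carrier, declined from 901 ± 42.1 to 671 ± 9.41 normalised counts (n = 2 each, SD), which is -0.42 as a log2 difference (SE 0.08, adjusted p 0.000321 by limma). ACLY, which splits exported citrate into acetyl-CoA and oxaloacetate for lipid synthesis, fell by 15.5% (limma adjusted p 0.00257). SLC25A13, an aspartate-glutamate carrier, fell by 12.8% (limma adjusted p 0.0110). The citrate carrier SLC25A1 fell by 13.0% by limma (adjusted p 0.0315) but was not called by DESeq2. Thus ACLY and the cytosolic NADP-linked enzyme IDH1 were both lower.

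Of 8 genes for lipoylation or assembly of succinate dehydrogenase, 2 assembly factors rose by limma, beside 16.2% of all tested genes called higher. SDHAF4 rose by 44.4% (limma adjusted p 0.00515) and SDHAF3 by 15.8% (limma adjusted p 0.0299), whereas DESeq2 called 0 of the 8 and gave 2 an unadjusted p under 0.05. Of 2 enzymes of hydroxyglutarate metabolism (D2HGDH and ADHFE1) limma called 0, with 1 at an unadjusted p under 0.05, and edgeR and DESeq2 called 0. SDHAF4, at 170 ± 23.6 normalised counts in vehicle (SD, n = 2), was among the less abundant genes of these lists.

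**Figure D4:**
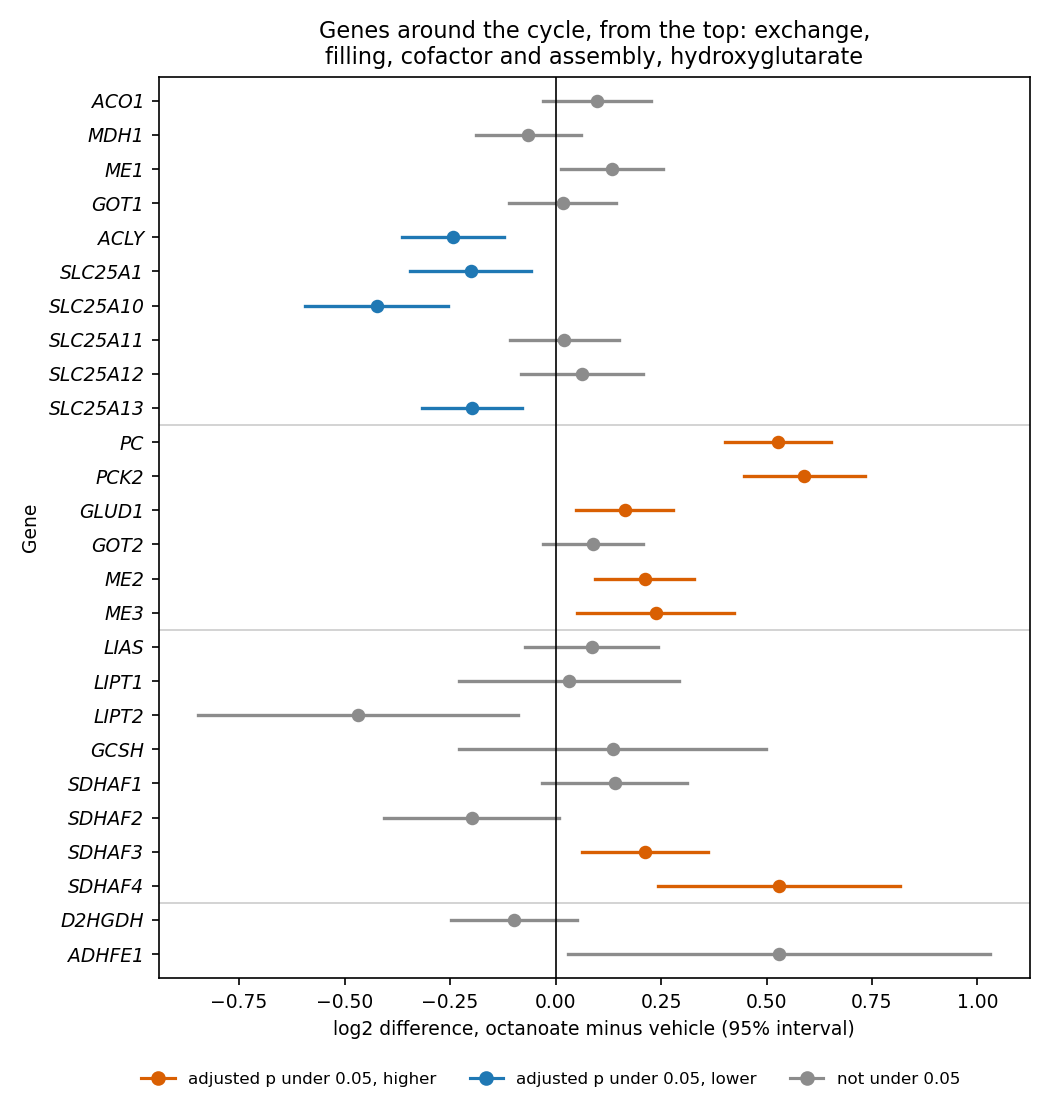
Log2 difference between octanoate and vehicle with its 95% interval for 26 genes around the cycle, in blocks from the top for exchange with the cytosol, filling and withdrawal, cofactor and assembly, and hydroxyglutarate metabolism, coloured by the limma call. The second block lies wholly to the right of 0 in its point values, from 0.09 to 0.59.

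The median pattern of the 9 members over the 4 libraries was nearly flat. Centred on its mean, it was 0.05 in vehicle 1, -0.01 in vehicle 2, 0.02 in octanoate 1 and -0.05 in octanoate 2 on the log2 scale. Of 8994 other genes with a mean of at least 1000, ITPA, FAM134C and TRIM14 came closest to it, at a root-mean-square distance of 0.00347, 0.00385 and 0.00428 over the 4 libraries. The pattern separates the libraries within each group more than it separates the groups.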

How the data were processed

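The deposited signal values are gene counts divided by 1 size factor per library, per the file headers and the submitters' processing notes, which name STAR 2.4, HTSeq 0.9.1, DESeq2 and hg38 without roles. Every positive value was a whole multiple (within 0.01) of the smallest in its library (100%), so whole reads were recovered; implied factors were 0.923 to 1.04. The authors' deposited comparison gives log2 fold changes, a test score and p-values. With limma 3.58.1 (R 4.3.3), log2(normalised count + 1) was compared between groups for the 20250 genes whose mean reached 10, with an intensity trend, two-sided, and Benjamini-Hochberg adjustment over all of them. Fold changes are on that scale, which understates changes of low genes. The members and gene lists were chosen with earlier results of these data known. All members and other cycle subunits are named, then up to 10 called neighbours by smallest p and the 3 genes nearest in pattern. Some genes of these lists are not reported here. Ratios used exact permutation. The ratios with DLST, IDH3A and SUCLG1 were added after values were seen. The settings tried besides were: a pseudocount of 0.5 or 5, the filter dropped or set to 50, TMM or equal totals, no trend, a replicate block, each library left out, edgeR 4.0.16 and DESeq2 1.42.0 on recovered reads (6480 and 4180 genes called), and, added later, GENCODE 29 genes alone and with GC and length trends removed. Shared sequence was searched with blastn 2.17.0. Tested on simulated data for the 20250 genes, limma recovered 34% of 50 changes of 0.2 on the log2 scale, 82% of 50 at 0.3 and all 50 at 0.5, with 10 false calls among 168. The changed genes all had a mean of at least 1000 and were a small part of those simulated. In the data 29.9% were called, so these rates may not carry over.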

Additional observations from a re-analysis of the deposited data

How the results depend on the processing

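The log2 differences of IDH1, IDH2, OGDH and SUCLG1 kept their direction under all 16 alternatives. Among the 20 cycle genes, differences near 0 changed sign: CS to -0.0015 with equal totals and -0.0040 with GC and length trends removed, and under TMM factors SUCLA2 to 0.0030 and DLST to 0.0082. With GC and length trends removed IDH3G went to -0.043, MRPS36 to -0.031 and SDHB to -0.020. With 1 library left out the log2 differences ran from -0.045 to 0.056 for CS, -0.074 to 0.050 for SUCLA2, -0.013 to 0.15 for MDH2, -0.0072 to 0.10 for IDH3G, -0.062 to 0.049 for DLST, -0.011 to 0.12 for MRPS36, -0.0098 to 0.069 for SDHB, and -0.040 to 0.12 for the IDH1 to IDH2 ratio. Over 20 cycle genes and 16 alternatives, 270 of 320 values kept direction and call, 21 lost the call, 13 gained it and 16 changed sign. 

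Dropping the filter on low counts adds genes both to the fit of the variance and to the adjustment. With it dropped, 2595 genes, 2 members, 0 other subunits (4 at an unadjusted limma p under 0.05) and 3 neighbouring genes were called. With the filter edgeR called 4 other subunits, and DESeq2 called 3 on all genes with a read. The limma adjusted p without the filter was 0.0938 for IDH2, 0.129 for SUCLG1, 0.196 for IDH3B, 0.231 for SDHD and 0.0827 for OGDHL. Without the intensity trend 1625 genes, 0 members (3 at an unadjusted limma p under 0.05; edgeR and DESeq2 called 4), 0 other subunits (1 unadjusted) and 2 neighbouring genes were called, and the prior degrees of freedom went from 21.2 to 1.57. By name, GENCODE 29 held 15183 (75.0%) of the tested genes, with all 9 members among them. Restriction to these GENCODE genes alone called 4 other subunits, with 52.6% of all calls higher against 54.1% over all tested genes. Removing GC and length trends within those genes gave 5 other subunits, 42.2% of calls higher, a median of all genes of -0.04, and 2 members higher and 3 lower. With 1 library left out, 3 to 4 members, 1 to 3 other subunits and 5 to 8 neighbouring genes were called; DESeq2 called 7 of the neighbouring genes. The replicate block called 6 other subunits and 8376 genes, and no member was gained or lost. Same-numbered libraries deviated together (r = 0.390 over 9003 genes). With 2 pairs, and no label saying what the number marks, what these libraries share besides the number cannot be told. The cause of these changes was not tested. With 2 libraries a group, the number of libraries limits the precision.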
